A study of Oryza sativa with 6 samples.

Results

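Rice leaves overexpressing the GATA-type transcription factor OsCGA1 were compared with wild type leaves for 4 cytokinin genes, namely LOGL1, LOGL7, RR2 and ORR4. They are 4 of the 17905 genes that have a probe set of their own on the array, and hold 5 of its 57194 non-control probe sets. The members were all probe sets annotated to a single gene that is ORR4 (LOC4328516) or carries RR2 (LOC4329677), LOGL1 (LOC4327684) or LOGL7 (LOC4339472) as symbol or synonym. The genes were selected on their log2 change between the same 6 arrays, which had passed an adjusted p of 0.05, so these changes are given as descriptions without a test.

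The overexpression group held 3 biological replicates of leaves from transgenic rice (Oryza sativa) labelled OsCGA1 OX, and the wild type group 3 biological replicates of wild type leaves. Plants were 4 weeks old and grown in chambers lit for 16 h a day, at 28 °C in the light and 23 °C in the dark. RNA was hybridized to a 1-colour Affymetrix Rice Genome Array, whose signals are linear intensities. The promoter of the transgene and the number of independent lines are not given in the sources used here, and the OsCGA1 transcript was not analysed here, which leaves the label unchecked.

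Cytokinins are plant hormones that promote cell division and chloroplast development. Enzymes of the LONELY GUY (LOG) family release the active base from its nucleotide precursor in a single step, and cytokinin oxidases (CKX) break the hormone down. The signal then passes by phosphate transfer from histidine kinase receptors through phosphotransfer proteins to response regulators in the nucleus. Type-B regulators are transcription factors that switch on cytokinin targets, while type-A regulators are short proteins whose genes are induced by cytokinin and which dampen the response. LOGL1 and LOGL7 are relatives of LOG. RR2 carries a type-A number. ORR4 also carries the names RR24 and OsRRB2, which place it among the type-B regulators, and it is a different gene from RR4.

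The 2 LOG-type genes had opposite differences. LOGL1 had signals of 207.7, 191.1 and 169.5 in overexpression replicates 1, 2 and 3, against 102.5, 110 and 104.9 in the wild type replicates. Every overexpression array lay above every wild type array, with a wider spread among the overexpression arrays. The means were 189.4 ± 19.2 in overexpression and 105.8 ± 3.83 in wild type (SD, n = 3 each), a log2 change of 0.82 ± 0.13 (standard error). On the log2(signal + 3) scale used throughout, which understates changes of low signals, this is a 1.76-fold higher level in overexpression.

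LOGL7 had signals of 177.1, 140.7 and 171.2 in overexpression, against 233.9, 244.6 and 297.2 in wild type. The genotypes did not overlap, and here overexpression was the lower one. Its means were 163 ± 19.5 in overexpression and 258.6 ± 33.9 in wild type (SD, n = 3 each), with a log2 change of -0.66 ± 0.14. In overexpressing leaves the level was thus 0.635 times that of wild type.

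The second probe set of LOGL7 was dim, at 14.5, 11.8 and 11.4 in overexpression, against 18.6, 13.2 and 19.7 in wild type. Its mean over the arrays was 14.9, under the minimum of 16.8 (the median of all non-control values) that was required for testing. Here overexpression replicate 1 lay above wild type replicate 2, so the genotypes overlapped. The log2 change of -0.36 ± 0.34, from a fit without the filter, had the sign of the brighter probe set, with a standard error nearly as large as itself. Hence 4 of the 5 probe sets of these genes passed the filter, 1 for each gene. The LOGL1 probe set is of the type marked x by the manufacturer, whose probes can match other transcripts too, so signal from related LOG transcripts in it cannot be told apart from LOGL1.

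**Figure D1:**
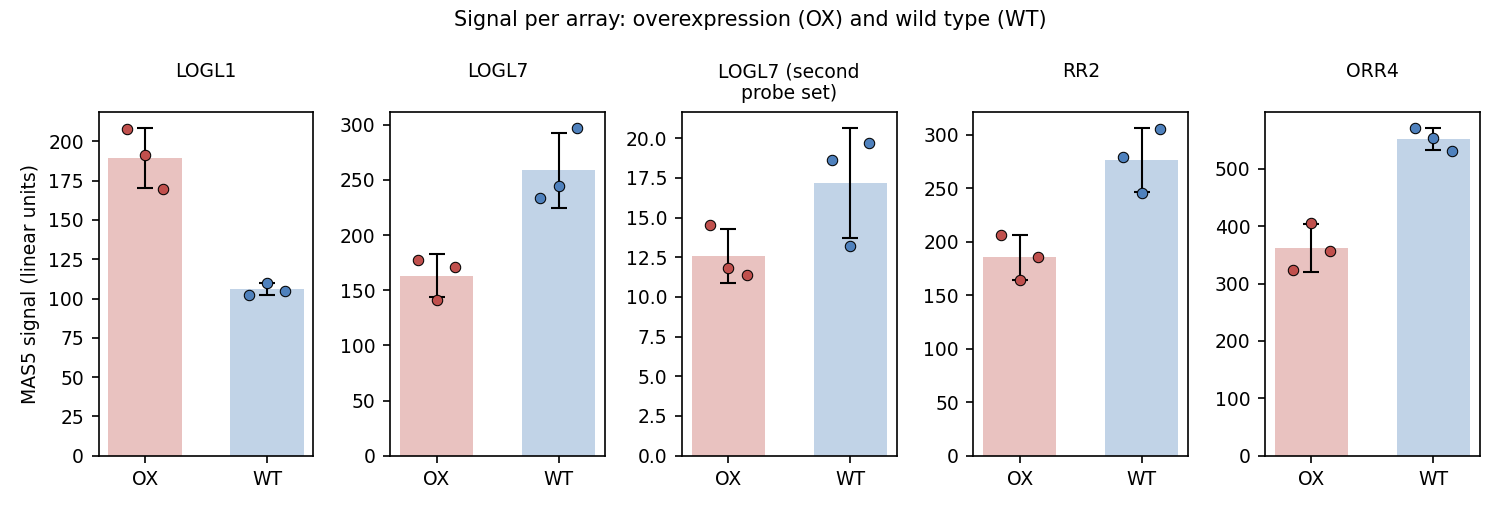
Signal of the 5 probe sets of LOGL1, LOGL7, RR2 and ORR4 on each array, in linear MAS5 units on separate axes, with points for arrays, bars for the mean and error bars for the SD (n = 3 per genotype). LOGL1 is higher in overexpression (OX), while ORR4, RR2 and the brighter LOGL7 probe set are lower there without overlap with wild type (WT), and the dim LOGL7 probe set overlaps.

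Both response regulators had lower signals in overexpressing leaves. RR2 read 206.5, 164.2 and 185.7 in overexpression, against 278.8, 245.6 and 305 in wild type. The highest overexpression array remained below the lowest wild type array. Means were 185.5 ± 21.2 in overexpression and 276.5 ± 29.8 in wild type (SD, n = 3 each). The log2 change was -0.57 ± 0.13, or 0.674 times the wild type level.

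ORR4 read 324.1, 406.2 and 356.3 in overexpression, against 570.5, 553.1 and 531.7 in wild type. Its wild type values lay close together and all of its overexpression values were below them. Means were 362.2 ± 41.4 in overexpression and 551.8 ± 19.4 in wild type (SD, n = 3 each), with a log2 change of -0.61 ± 0.11 or 0.656 times wild type. Fewer cells that express a gene and less of its RNA per cell cannot be told apart in whole leaves.

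These 4 genes did not all vary alike among replicates of 1 genotype, though RR2 and LOGL7 ranked the overexpression replicates in the same order. Overexpression replicate 2 was the lowest of its group for RR2 and LOGL7 and the highest for ORR4, while LOGL1 was highest in replicate 1. Among wild type arrays, replicate 3 was the highest for RR2 and LOGL7, and the lowest for ORR4.

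The size of the differences was moderate among all measured transcripts. In a limma fit across 28456 tested probe sets, 16.1% passed an adjusted p of 0.05, 8.65% higher and 7.44% lower in overexpression, and in 38.7% the genotypes did not overlap. The brightest probe sets of these 4 genes were among those that passed, which is how the genes were picked. A log2 change at least as large in either direction was found in 13.1% of tested probe sets for LOGL1, 20.2% for LOGL7, 22.9% for ORR4 and 25.4% for RR2. The median over all tested probe sets was -0.09. Of the 4 genes RR2 lay nearest to that threshold, with the smallest change, while CKX3 (-0.90 ± 0.26) and LOGL10 (0.65 ± 0.19), which are not among them, lay just outside it.

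**Figure D2:**
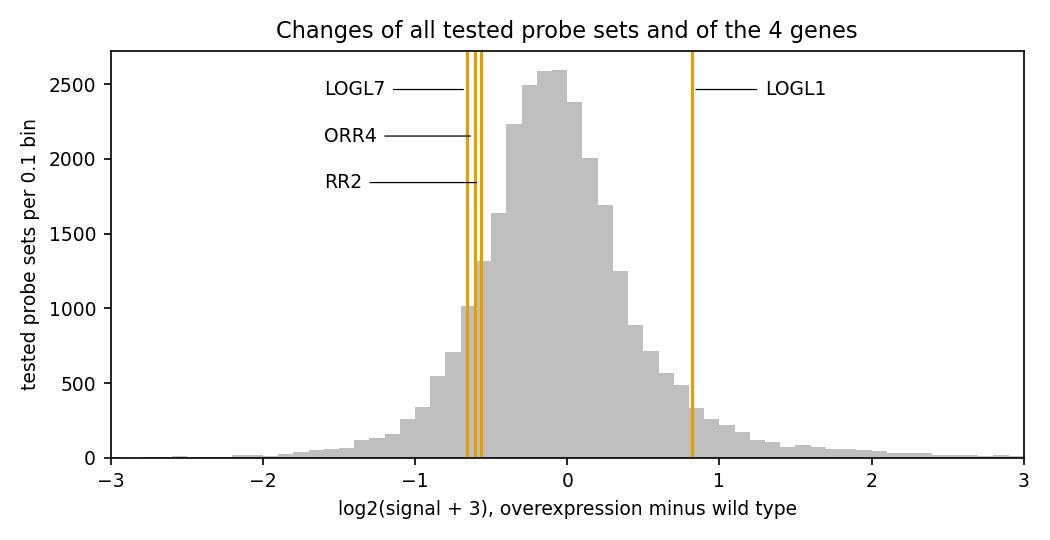
Distribution of log2 changes, overexpression minus wild type, over 28456 tested probe sets, as counts per bin, with vertical lines at the brightest probe set of each of the 4 genes; 159 probe sets beyond 3 on either side are not drawn. LOGL7 (-0.66), ORR4 (-0.61) and RR2 (-0.57) lie on the lower shoulder and LOGL1 (0.82) on the upper one.

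The other genes of the pathway were read from lists of enzymes, receptors, phosphotransfer proteins and regulators, with the brightest tested probe set per gene. Of 29 such genes other than the 4, 25 could be tested, and 3 fell and 0 rose in overexpression by limma, against 8% lower and 11.1% higher among all 14616 genes tested. At an unadjusted p of 0.05, 10 were lower and 1 was higher, against 17.7% lower and 18.8% higher (36.5% in either direction) among all genes tested. Of the 25, 19 had a change below 0, as did 58% of all tested probe sets. The bases differ, since the 58% counts every tested probe set and not 1 per gene. Their median change was -0.17, against -0.02 for all genes tested. In 12 of the 25 (48%) the genotypes did not overlap, against 38.7% of all tested probe sets. Each of the 3 calls ended in several alternative settings, and without overexpression replicate 3, wild type replicate 1 or wild type replicate 3 the count of falls was 0, while without overexpression replicate 2 it was 6.

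Among the 6 other LOG enzymes tested, none passed, with 1 higher and 1 lower at an unadjusted p of 0.05 from limma. LOGL10 was nearest to LOGL1 in its change, with 139.8, 223.5 and 218.3 in overexpression, against 121.3, 111.1 and 128.1 in wild type. The genotypes did not overlap, with a log2 change of 0.65 ± 0.19 that had an adjusted p of 0.0551 from limma and passed in 4 of 15 alternative settings. On the lower side, LOGL6 was at -0.65 ± 0.31 and LOGL9 at -0.49 ± 0.20, both without overlap and with adjusted p of 0.185 and 0.133 from limma. LOG itself, the family's founding member, had 1846 ± 378 in overexpression and 2076 ± 352 in wild type (SD, n = 3 each), a log2 change of -0.17 ± 0.17. LOGL5 was at -0.03 ± 0.12, with narrow spread in both genotypes. LOGL3 was at 0.14 ± 0.31, where overexpression replicate 3 alone read 265.7 and the other arrays 102 to 147.8, and without that replicate it was at -0.26.

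Of 4 tested cytokinin oxidase genes, 1 fell and 0 rose. CKX4 had 524.4, 641.3 and 581.4 in overexpression, against 784, 702 and 818.9 in wild type. The genotypes did not overlap, and its log2 change of -0.40 ± 0.11 had an adjusted p of 0.0489 from limma, which lost its call in 8 of 15 alternatives. CKX3 had a larger difference at lower signal, with 28.7 ± 5.99 in overexpression and 57.2 ± 16.1 in wild type (SD, n = 3 each), at -0.90 ± 0.26. CKX5 (0.08 ± 0.28) and CKX11 (-0.03 ± 0.27) had overlapping genotypes, and CKX1 was below the minimum signal.

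Receptor genes were all at or below the wild type level on average, and 1 of 4 fell. That was CRL4, also called CHARK, a receptor-like kinase with the cytokinin-binding type of outer domain. It had 59.7, 32.6 and 60 in overexpression, against 99.1, 91.5 and 102.3 in wild type. Every overexpression array was below every wild type array, with a log2 change of -0.95 ± 0.24 and an adjusted p of 0.0326 from limma, lost in 6 of 15 alternatives. The histidine kinase genes HK3, HK4 and HK5 were at -0.24 ± 0.10, -0.42 ± 0.17 and -0.07 ± 0.12, and none passed, with adjusted p of 0.149, 0.12 and 0.738 from limma.

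All 3 tested phosphotransfer genes had lower signals without overlap, and 1 of them fell. Over all tested probe sets, 38.7% had no overlap, in either direction. AHP1, which carries the phosphate from receptor to regulator, had 208, 226.8 and 193.7 in overexpression, against 342.4, 276.4 and 325.2 in wild type. This was a log2 change of -0.58 ± 0.13 with an adjusted p of 0.02 from limma, lost in 4 of 15 alternatives. Its second, dimmer probe set was at -0.34 ± 0.17, overlapped between genotypes and did not pass. AHP2 was at -0.23 ± 0.11 and PHP5, numbered among the pseudo-phosphotransfer proteins, at -0.74 ± 0.24, with adjusted p of 0.185 and 0.0736 from limma.

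The other tested response regulators gave smaller or opposite changes than RR2 and ORR4. This contrast was not tested, and the selection of RR2 and ORR4 for passing on these arrays favoured it in advance. Of the 4 other type-A genes none passed, with 1 lower at an unadjusted p of 0.05 from limma. RR4 had 477.5 ± 32.3 in overexpression and 572.7 ± 21 in wild type (SD, n = 3 each), a log2 change of -0.26 ± 0.10 without overlap. RR6 (-0.05 ± 0.15), RR9 (-0.07 ± 0.16) and RR1 (0.07 ± 0.25) all overlapped. RR5 was below the minimum signal.

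Of the 3 other type-B genes tested none passed, also at an unadjusted p of 0.05 from limma. RR22, also named ORR2, had 230.7, 133.2 and 211.6 in overexpression, against 131.7, 126.4 and 144 in wild type. Overexpression replicate 2 lay within the wild type range while the other replicates lay above it, so the log2 change was 0.47 ± 0.20, and without that replicate it was 0.71 with an adjusted p of 0.0113 from limma. RR23, also named ORR3, was at 0.25 ± 0.17, and RR21, also named ORR1, at -0.01 ± 0.13. None of these 3 had genotypes without overlap, against 38.7% of all tested probe sets. RR33, which carries both type-B and type-A names, was below the minimum at 9.4 to 14.7 in overexpression and 2.4 to 5.7 in wild type. The type-C gene RR42 was at -0.28 ± 0.11 without overlap and with an adjusted p of 0.117 from limma, and RR41 was below the minimum.

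**Figure D3:**
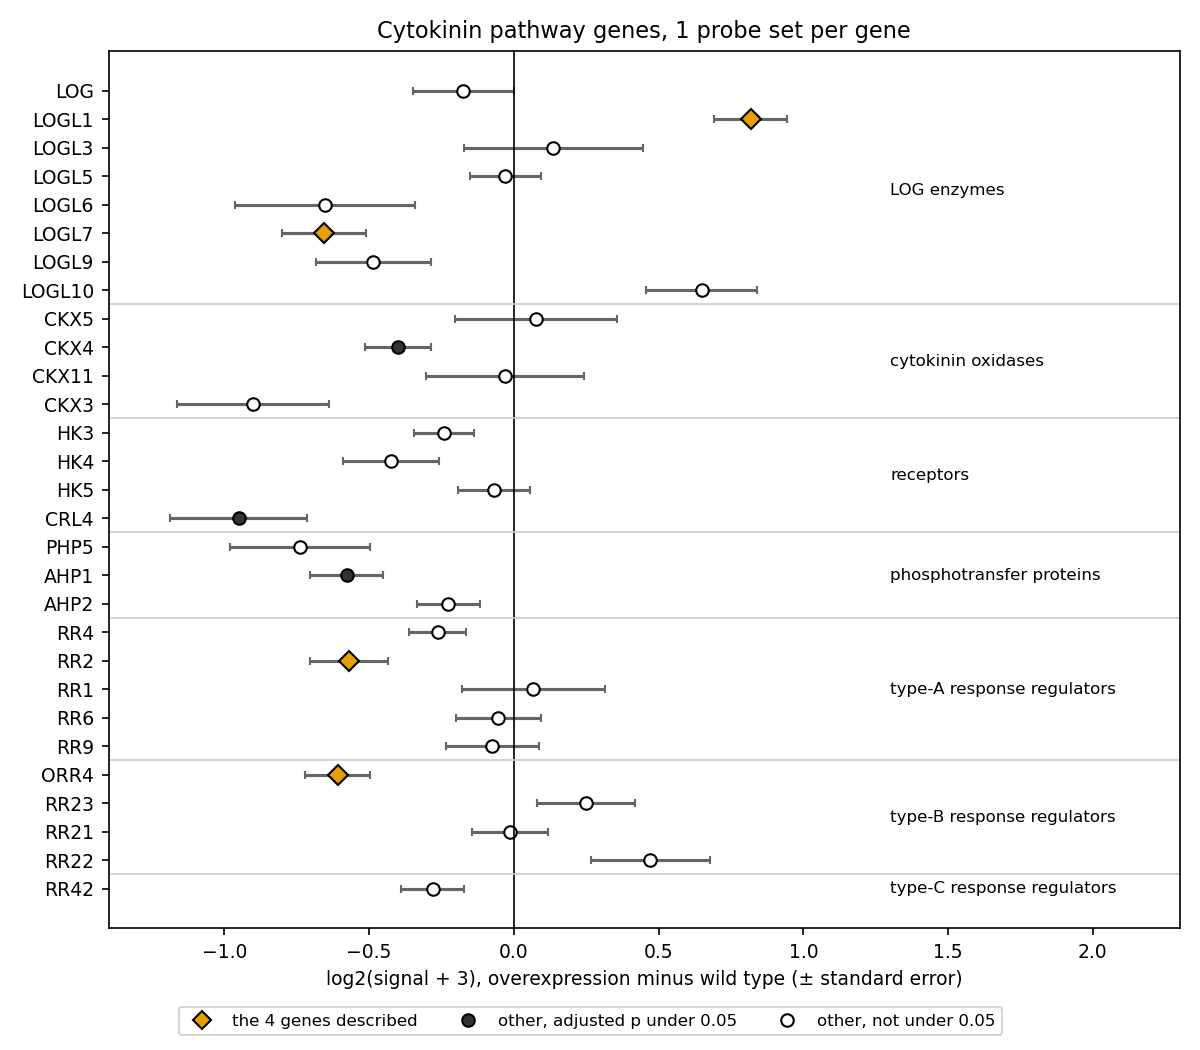
Log2 change (overexpression minus wild type, on the log2(signal + 3) scale, ± standard error, n = 3 arrays per genotype) of 29 tested cytokinin pathway genes by role. Diamonds mark LOGL1, LOGL7, RR2 and ORR4, filled circles the other genes that passed (CKX4, CRL4 and AHP1) and open circles those that did not. All receptor and phosphotransfer genes lie below 0, while LOG enzymes and type-B regulators lie on both sides.

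No gene of the isopentenyl transferase, cytokinin hydroxylase, glucosyltransferase or cytokinin response factor lists was matched by name, and these were not analysed here. LOGL4, LOGL8, CKX2, CKX9, HK1, PHP1, PHP2, RR7, RR10, RR11, RR13, RR25 and RR27 had no probe set of their own in the annotation used.

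Over the 6 arrays, each of the 4 genes was set against 2048 named genes with a tested probe set by Pearson correlation. The closest to LOGL1 were ENR (0.997) and DRR2 (0.996), and to LOGL7 CESA9 (0.996), a cellulose synthase of secondary walls, and VATP-P1 (0.996). Closest to RR2 were GLO5 (0.992) and NRAMP4 (0.989), and to ORR4 the red-light receptor gene phyC (0.994) and the aquaporin gene PIP1-1 (0.993). These correlations include the difference between genotypes, and 22 to 91 probe sets of named genes passed 0.95 for each of the 4. The phyC signals were 472.3, 539.2 and 510.9 in overexpression, against 690.8, 647.1 and 644 in wild type. Like ORR4, phyC was highest in replicate 2 within overexpression and in replicate 1 within wild type. Since phyC was picked by its correlation with ORR4 over these same arrays, the choice favoured such a likeness, which adds no support.

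Several other measures moved with genotype on these arrays, and their part in the differences of the 4 genes was not tested. The median signal per array was 14.7 to 16.2 in overexpression and 16.8 to 18.7 in wild type. The ratio of 3' to 5' signal, a sign of RNA quality, was compared in 10 control pairs, of which 4 did not overlap between genotypes. This ratio was higher in overexpression without overlap in 2 of 3 actin pairs. It ran the other way for GAPDH, at 4.02 ± 0.643 in overexpression and 4.74 ± 0.465 in wild type (SD, n = 3 each), with overlap. The cyclophilin pair (1.67 ± 0.0846 in overexpression, 1.6 ± 0.293 in wild type) and the ubiquitin pair (0.779 ± 0.0362 in overexpression, 0.767 ± 0.0475 in wild type) overlapped too. The genotypes also did not overlap in 2 pairs of spiked-in controls, whose RNA is not from the leaf, with 1.57 ± 0.0391 in overexpression and 1.81 ± 0.0747 in wild type for bioD, and 0.831 ± 0.00833 in overexpression and 0.778 ± 0.0335 in wild type for cre (SD, n = 3 each). For 1 of the separated actin pairs the ratio was 3.4, 2.16 and 2.22 in overexpression and 2.01, 1.53 and 1.84 in wild type (exact permutation p = 0.1, two-sided, the smallest that 3 arrays against 3 allow). Leaf mesophyll genes were bright on all arrays, with a summed signal of 57386 to 68428 in overexpression and 73261 to 85521 in wild type, and none of 5 passed by its brightest probe set, though all 5 were lower at an unadjusted p of 0.05 from limma, as were 17.7% of all genes tested. A dimmer probe set of rca did pass, at -0.38 ± 0.10 with an adjusted p of 0.0425 from limma. Of 6 root marker genes 5 were tested and 3 fell, against 8% of all genes tested. These were Lsi1 (-1.39 ± 0.17), YSL15 (-1.63 ± 0.31) and IRT1 (-0.80 ± 0.23, lost in 11 of 15 alternatives). YSL15 read 17, 18.8 and 40.4 in overexpression, against 95, 73.2 and 71.4 in wild type. Its overexpression replicates 1 and 2 thus lay near the minimum of 16.8. The other tested genes, HKT8 (-0.04 ± 0.29) and NRAMP5 (-0.11 ± 0.31), overlapped between genotypes. The list summed to 251 to 311.9 in overexpression and 640.5 to 659.2 in wild type. Lsi1 alone read 123.1 to 194 in overexpression and 370.6 to 458.2 in wild type.

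Meristem markers, which matter here because LOG acts in shoot meristems, were mostly dim, with 8 of 10 probe sets below the minimum and none at 0. They summed to 114.7 to 188.9 in overexpression and 227.6 to 278.8 in wild type, and 1 of 2 tested genes fell. It was the receptor kinase gene FON1 (-1.06 ± 0.30, lost in 8 of 15 alternatives). FON1 alone read 53.7 to 134.1 in overexpression and 154.8 to 179.6 in wild type, so the sums largely follow this gene. LAX1, the other tested gene, was at 0.17 ± 0.43 with overlap. Of the probe sets below the minimum, those of OSH3, OSH6 and WOX4 and 1 of OSH43 were also lower without overlap. Those of OSH1 and OSH71 and the other of OSH43 overlapped. Over all tested probe sets, 38.7% had no overlap. Of 12 genes of dividing cells 3 were tested and none passed, 1 being higher at an unadjusted p of 0.05 from limma, with sums of 289.4 to 393 in overexpression and 242.8 to 280.8 in wild type. Clock genes, whose levels can differ with the hour of harvest, included 1 riser among 7, PCL1 (1.22 ± 0.22), against 11.1% of all genes tested. Another 2 fell, PRR37 (-0.81 ± 0.19, lost in 6 of 15 alternatives) and PRR95 (-0.48 ± 0.14, lost in 10), against 8%. PRR1 (0.33 ± 0.13), GI (-0.38 ± 0.14) and PRR73 (-0.51 ± 0.17) did not overlap between genotypes but did not pass. CCA1 (-0.15 ± 0.14) overlapped. The clock list summed to 10763 to 15143 in overexpression and 16153 to 16948 in wild type. Of 4 genes of chlorophyll breakdown and ageing, SGR (1.5 ± 0.29) and NYC1 (0.85 ± 0.19) rose, against 11.1% of all genes tested. The other tested genes, NOL (0.07 ± 0.10) and NAC2 (0.17 ± 0.31), overlapped between genotypes. This list summed to 1908 to 2569 in overexpression and 1237 to 1525 in wild type, with SGR and NOL each counted by more than 1 probe set. Of 3 other GATA factor genes tested, GATA20 fell (-0.44 ± 0.10, lost in 7 of 15 alternatives), against 8% of all genes tested. GATA17 was at 0.32 ± 0.16 with overlap and GATA18 at -0.20 ± 0.10 without overlap, and neither passed.

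The differences of LOGL1, LOGL7, RR2 and ORR4 kept their direction under other processing. Over 15 alternative settings the log2 change ran from 0.73 to 0.89 for LOGL1, -0.72 to -0.55 for LOGL7, -0.65 to -0.49 for RR2 and -0.69 to -0.53 for ORR4. Each range lay on 1 side of 0. That was largely fixed in advance, since the genes were selected on these arrays and their genotypes did not overlap. Leaving out an array could then not reverse a sign. Changes of the filter, the variance trend or the replicate block left the estimate itself as it was. The ranges therefore describe the size of the changes and add no independent support.

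**Figure D4:**
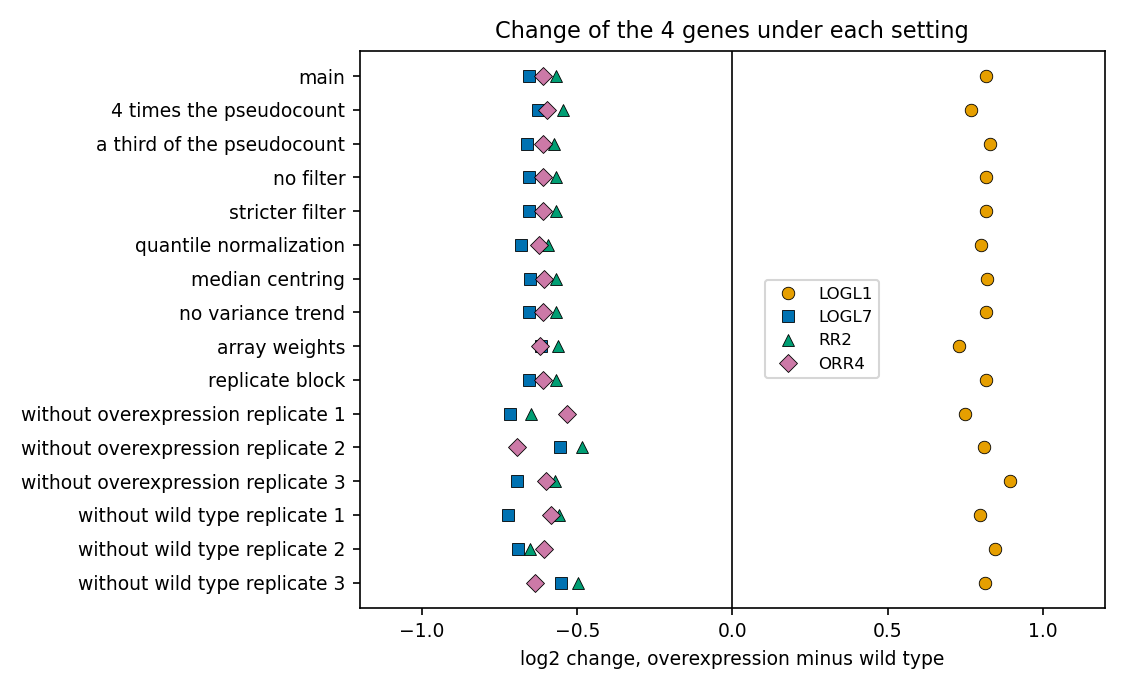
Log2 change (overexpression minus wild type) of LOGL1, LOGL7, RR2 and ORR4 on the horizontal axis, by analysis setting. LOGL1 stays above 0 (0.73 to 0.89) and the other 3 below it.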

How the data were processed

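Leaf RNA of 3 overexpression and 3 wild type replicates was measured. The deposited values are linear intensities, 1 per probe set and array, for which the submitters' processing notes name MAS5. Without detection calls, no probe set could be marked as being at background. After trimming 2% at each end every array averaged 99.8, so no further scaling was applied. Precision is limited by the number of arrays. The series' design text calls the replicates biological.

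Controls (187 probe sets) were left out. Gene names came from the platform annotation (22436 probe sets with 1 symbol, 95 with several, 34663 with none) and RefSeq synonyms (assembly ASM3414082v1); all 17905 genes matched. Values were analysed as log2(signal + 3) for probe sets with a mean of at least 16.8, with limma 3.58.1 in R 4.3.3 (a two-sided test of genotype with a variance trend), adjusted by Benjamini-Hochberg over all 28456; the fit was first tested on simulated data with known changes. "Rose" and "fell" mean an adjusted p under 0.05.

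Members and lists were chosen with earlier results of these data known. Regulators named ORR1 to ORR4 were classed as type-B by their other names, as no protein sequence was used here. Named were the members, all tested pathway genes, the 2 most correlated genes per member, and up to 2 passing genes per marker list. IRT1, PRR95, LAX1, HKT8 and NRAMP5 were added after their values were seen. So were NOL, NAC2, GATA17, GATA18, PRR1, GI, PRR73, CCA1 and the dim meristem genes.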

Additional observations from a re-analysis of the deposited data

How the results depend on the processing

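The 4 changes of LOGL1, LOGL7, RR2 and ORR4 kept their direction in all 15 alternatives and moved by less than the spread between replicates. As the genes were selected on these arrays and did not overlap between genotypes, the kept direction adds no independent support. Counts moved more. Array weights gave 7945 probe sets called against 4578, with 46.7% of calls higher against 53.8%, and leaving out 1 array gave 2230 to 5533. Among the 25 other pathway genes, falls numbered 3, but 1 with no filter or no variance trend, 8 with array weights and 0 to 6 with 1 array left out. Rises numbered 0, but 1 with the stricter filter or median centring, 2 with array weights and 0 to 2 with 1 array left out. The cause of these moves was not tested. With the replicate block, 3342 probe sets were called and 2 pathway genes fell; AHP1 and CKX4 lost their call (adjusted p of 0.0556 and 0.0963 from limma) and PHP5 gained it (0.0449). Deviations of same-numbered arrays correlated at 0.10, -0.01 and -0.06, and those of differently numbered arrays at -0.10 to 0.12. With 3 arrays per group these values cannot exclude a pairing, and the labels name none. Genes near 0 changed sign: with array weights CKX11 was at 0.090, LOGL5 at 0.031, RR6 at 0.0057 and RR9 at 0.029. With 1 array left out, CKX11 ran from -0.26 to 0.28, CKX5 from -0.17 to 0.25, HK5 from -0.17 to 0.0010, LOGL3 from -0.26 to 0.42, LOGL5 from -0.084 to 0.019, RR1 from -0.14 to 0.34, RR21 from -0.11 to 0.069, RR6 from -0.18 to 0.068 and RR9 from -0.20 to 0.068. CRL4 lost its call in 6 of 15 alternatives, AHP1 in 4 and CKX4 in 8. Of the marker genes, the calls of Lsi1 and PCL1 held in all 15, while NYC1 lost its call in 4, SGR in 3 and YSL15 in 1 of 14. The alternatives for marker genes were chosen after seeing the data. Without detection calls, changes of dim probe sets such as the second one of LOGL7 have no known background.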
